A study of Mus musculus with 2 samples.

Results

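Mir199a-1, Mir199a-2, Mir199b, Mir214 and Mir140 are 5 microRNA genes known from fibroblasts, connective-tissue capsules and cartilage, and they were followed here in the adrenal gland. They were taken by name from the 2202 microRNA genes of the GENCODE M21 annotation. All 5 were annotated, and 4 reached the floor of 10 CPM (the reads of a gene scaled to the reads assigned to all microRNA genes) in at least 1 library. The study sequenced small RNAs of whole adrenal glands from female mice aged 10 days of B6CASTF1/J, the F1 hybrid of the C57BL/6J and CAST/EiJ strains. There was 1 group and no treatment, genotype contrast or control, with 1 library from each of 2 animals that the labels number 3 (replicate 1) and 4 (replicate 2). The donor entry is the same for both, and they are taken as separate animals by these numbers alone. Replicate 1 had 2023410 reads assigned to microRNA genes and replicate 2 had 3208821, so that 1 read was worth 0.494 and 0.312 CPM.

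A microRNA is cut from a hairpin in a longer transcript, and its seed, bases 2 to 8 of the mature strand, pairs with target messenger RNAs and represses them. Mir199a-2 and Mir214 are made from Dnm3os, a noncoding RNA transcribed against the dynamin gene Dnm3 and active in mesenchyme of the mouse embryo. Mir199a-1 and Mir199b lie against the other dynamin genes, Dnm2 and Dnm1, on the opposite strand. Mir140 lies in the ubiquitin ligase gene Wwp2, is driven by the chondrocyte factor Sox9, and mice that lack it have skeletal growth defects. The adrenal gland is wrapped in a mesenchymal capsule that holds progenitors of the steroid-producing cortex in mice.

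The mature strands are shown because they decide which reads can be told apart. They come from RefSeq (build GRCm38.p6, the C57BL/6J reference), which had a hairpin for all 5 genes. They are written 5′ to 3′ with the seed in capitals.
miR-199a-5p, from Mir199a-1 and Mir199a-2: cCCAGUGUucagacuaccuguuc
miR-199a-3p and miR-199b-3p, from Mir199a-1, Mir199a-2 and Mir199b: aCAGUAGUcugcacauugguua
miR-214-5p, from Mir214: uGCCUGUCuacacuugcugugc
miR-214-3p, from Mir214: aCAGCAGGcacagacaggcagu
miR-140-3p, from Mir140: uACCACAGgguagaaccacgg
miR-199b-5p and miR-140-5p are named only. The 3p strand was identical in all 3 Mir199 genes, and the listed 5p strand was identical in both Mir199a genes. Outside these 5 genes, 2 other genes of the RefSeq table shared a seed. Mir761 shared that of miR-214-3p and had 0 and 1 reads in replicates 1 and 2. Mir497b shared that of miR-140-3p and had 0 and 2 reads, so that both stayed under the limit of 3 counts that a count of 0 allows.

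The hairpins of the 3 Mir199 genes show how far the likeness runs. Capitals mark every stretch of at least 18 bases that also occurs in another annotated microRNA hairpin, in either orientation.
Mir199a-1: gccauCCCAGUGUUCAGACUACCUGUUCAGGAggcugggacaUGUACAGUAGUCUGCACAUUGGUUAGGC
Mir199a-2: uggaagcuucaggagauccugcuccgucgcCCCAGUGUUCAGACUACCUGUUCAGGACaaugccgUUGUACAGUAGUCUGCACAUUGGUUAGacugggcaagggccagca
Mir199b: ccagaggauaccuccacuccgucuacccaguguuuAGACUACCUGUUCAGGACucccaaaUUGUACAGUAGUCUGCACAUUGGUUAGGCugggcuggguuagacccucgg
Shared stretches covered 55 of 70 bases in Mir199a-1, 55 of 110 in Mir199a-2 and 47 of 110 in Mir199b. The stretch of the Mir199b hairpin that lines up with miR-199a-5p differed from it at 1 base, C10U, counted from 1 at the 5′ end of miR-199a-5p. A read starting at the 5′ end of miR-199a-5p needed 28 bases before it occurred in a single annotated hairpin, which is longer than the 23-base mature strand. In the Mir199b stretch lined up with it, 10 bases, the shortest length tried, were enough. A read starting at the 5′ end of the 3p strand needed 24 bases in Mir199a-2 and 26 in Mir199b, and found no such length within the Mir199a-1 hairpin. By contrast, the same 3p start in Mir214 needed 11 bases. The hairpins of Mir214 and Mir140 shared no stretch of 18 bases with another annotated hairpin. These lengths refer to annotated hairpins, not to the whole genome.

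**Figure D1:**
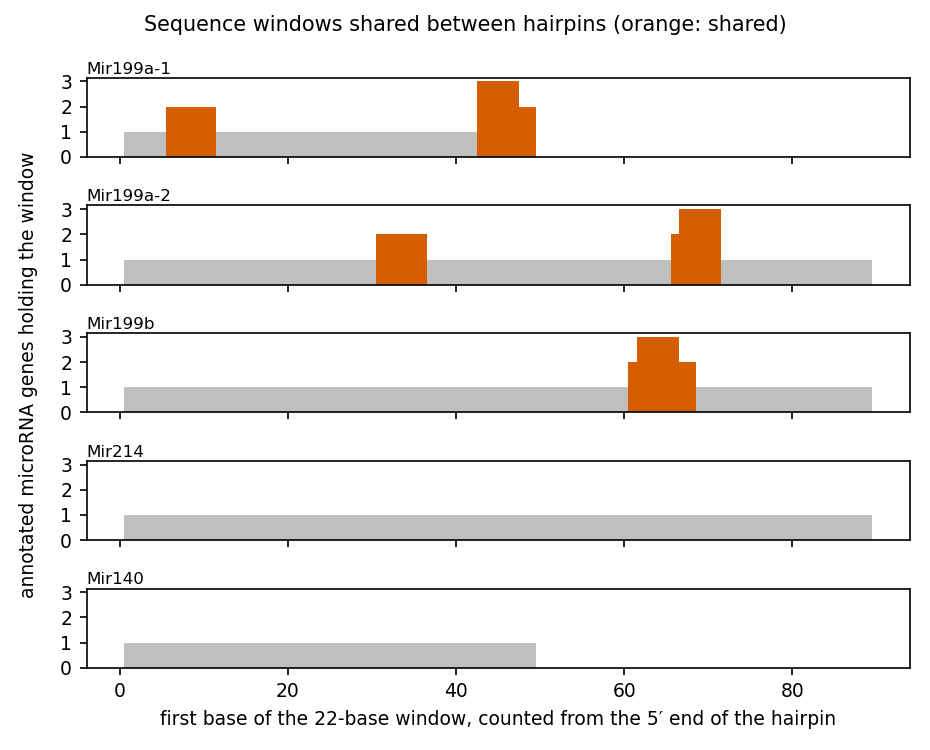
Sharing of 22-base windows along the 5 hairpins. The x axis gives the first base of each window from the 5′ end and the y axis the number of annotated microRNA genes that hold it, with shared windows in orange. In Mir199a-1, 13 of 49 windows were shared, in Mir199a-2 12 of 89 and in Mir199b 8 of 89, while Mir214 and Mir140 had none.

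Reads with several alignments were left uncounted by the authors and made up 25.0% and 27.2% of all reads in replicates 1 and 2. Mature reads of the Mir199a genes, and 3p reads of Mir199b, can be among them. The counts of the 3 Mir199 genes are therefore uncertain and give no total for miR-199. Mir214 and Mir140 did not share this limit among annotated hairpins, but the rest of the genome was not searched.

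In the mm10 build, Mir199a-2 lies on chromosome 1 at positions 162217814 to 162217923 and Mir214 at 162223368 to 162223477, both on the plus strand. The gap between them is 5444 bases. Each overlaps an exon of at least 1 Dnm3os transcript on its own strand and an intron of Dnm3 on the other. Mir199a-1 lies on chromosome 9 at 21496495 to 21496564 on the minus strand, against an intron of Dnm2. Mir199b lies on chromosome 2 at 32318460 to 32318569 on the plus strand, against an intron of Dnm1. Mir140 lies on chromosome 8 at 107551244 to 107551313 on the plus strand, in sequence that is exonic in at least 1 Wwp2 transcript. Within 10 kb of the 5 genes, the annotation held 1 further microRNA gene, Gm23363 near Mir199b, with 1 and 3 reads. No read was counted on the opposite strand of any of the 5 genes in either library.

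Mir140 and Mir214 carried nearly all reads of these genes, and they exchanged places between the libraries. Mir214 stood at 6186 reads or 3057 CPM in replicate 1 (exact Clopper-Pearson 95% interval 2982 to 3134 CPM) and at 2934 reads or 914 CPM in replicate 2 (882 to 948 CPM). Mir140 stood at 1066 reads or 527 CPM in replicate 1 (496 to 559 CPM) and at 19484 reads or 6072 CPM in replicate 2 (5987 to 6158 CPM). Mir214 was thus the leading gene of the set in replicate 1 and Mir140 in replicate 2. These intervals cover counting error only.

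The Mir199 genes were counted at far lower levels. Mir199b stood at 109 reads or 53.9 CPM in replicate 1 and at 278 reads or 86.6 CPM in replicate 2. Mir199a-2 stood at 54 reads or 26.7 CPM and at 53 reads or 16.5 CPM. Mir199a-1 had 0 reads in replicate 1 and 1 read in replicate 2. A count of 0 allows up to 1.48 CPM in replicate 1 for a gene with reads of its own, but sets no limit for a copy whose reads align to several places.

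By mean over the animals, the order was Mir140 at 3299 CPM ± 3921 (SD, n = 2), Mir214 at 1986 CPM ± 1515 (SD, n = 2), Mir199b at 70.3 CPM ± 23.2 (SD, n = 2), Mir199a-2 at 21.6 CPM ± 7.19 (SD, n = 2) and Mir199a-1 at 0.156 CPM ± 0.220 (SD, n = 2). Levels were not divided by length, since the mature strands listed are all 21 to 23 bases long, and the lengths of the counted reads were not used here. Mir140 and Mir214 did not differ beyond their spread. The steps from Mir214 down to Mir199b and from Mir199b to Mir199a-2 were larger than either SD, with the limit on Mir199 counts given above. Among all 2202 genes by mean CPM, Mir140 ranked 47, Mir214 ranked 67, Mir199b ranked 230 and Mir199a-2 ranked 285. The genes directly around Mir140 were Mir455 (3680 CPM ± 192, SD, n = 2), itself known from cartilage, and Mir145a of smooth muscle (3238 CPM ± 3311, SD, n = 2). Those around Mir214 were Mir20a (2023 CPM ± 286, SD, n = 2) and Mir341 (1980 CPM ± 355, SD, n = 2). Each of these neighbours differed from Mir140 or Mir214 by less than that gene's SD. The same held for Mir92-2 (70.3 CPM ± 9.56, SD, n = 2) and Mir20b (68.5 CPM ± 25.6, SD, n = 2) around Mir199b, and for Gm23450 (22.9 CPM ± 5.89, SD, n = 2) and Mir505 (21.6 CPM ± 10.7, SD, n = 2) around Mir199a-2.

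**Figure D2:**
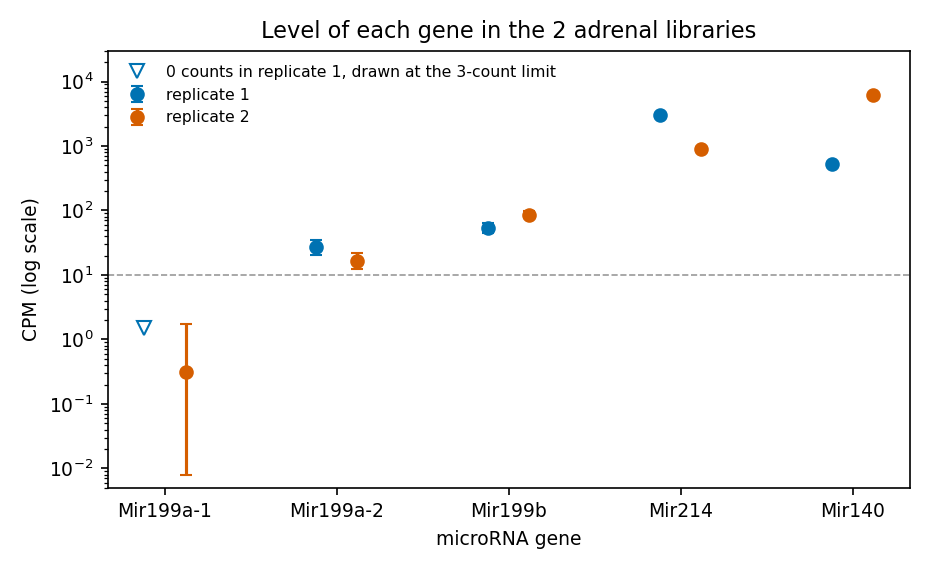
Level of each gene in both adrenal libraries, in CPM on a log axis, with exact 95% intervals of counting error as bars. The dashed line is the floor of 10 CPM, and the open triangle is a count of 0 drawn at the limit of 3 counts (1.48 CPM). Mir214 is higher in replicate 1 (3057 against 914 CPM) and Mir140 in replicate 2 (6072 against 527 CPM).

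Together the 5 genes took 0.366% of assigned reads in replicate 1 (exact 95% interval 0.358 to 0.375%) while in replicate 2 they took 0.709% (0.6998 to 0.718%). The mean share was 0.538% ± 0.242 (SD, n = 2). The makeup of that share turned over. Mir214 made up 83.4% of it in replicate 1 and 12.9% in replicate 2. Mir140 made up 14.4% and 85.6%. Without Mir140, the Mir199 and Mir214 genes took 0.314% and 0.102% of assigned reads.

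The libraries were then compared gene by gene by an exact binomial test of each gene's counts, conditional on their sum, with Benjamini-Hochberg adjustment over the 329 genes at 10 CPM or more in either library. The test compares these 2 libraries, not conditions, and sets them against counting error alone. Log2 ratios set replicate 2 over replicate 1 after TMM scaling of the libraries. A pseudocount of 1 CPM was added to each value, so differences of low genes are understated. All 4 tested genes of the set passed at an adjusted p below 0.05, 2 higher and 2 lower in replicate 2. Of all tested genes 74.2% passed, 37.7% higher and 36.5% lower, so that passing was the usual outcome at this floor and is no result about these genes. When all 790 genes with a read were tested, 31.3% passed. In whole tissue, fewer cells of a type and less RNA per cell cannot be told apart.

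Mir140 was higher in replicate 2 by a log2 ratio of 3.57 (exact 95% interval 3.49 to 3.67), or 11.9-fold, the second-ranked ratio among the 329 genes. Mir26a-1, a numbered copy at 3.95 and 70.1 CPM, ranked above it at 3.89 and is named after its values were seen. Mir214 was lower in replicate 2 by a log2 ratio of -1.69 (-1.76 to -1.63), or 3.23-fold, and ranked 16 from the lower end. The adjusted p of both was too small for the number format used to hold. At a difference of at least 1 log2 unit, 10.9% of all tested genes were higher and 11.2% lower in replicate 2, and Mir140 and Mir214 were among them. The median over all tested genes was -0.01 and the SD of their log2 ratios 1.01.

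Mir199b was higher in replicate 2 by a log2 ratio of 0.72 (0.41 to 1.07, adjusted p = 7.94e-06 by the exact binomial test). Mir199a-2 was lower by -0.61 (-1.22 to -0.07, adjusted p = 0.0315 by the exact binomial test), from 54 and 53 reads in libraries of unequal depth. Its adjusted p was 0.0698 when all genes with a read were tested, which ends the call. Mir199a-1 was below the floor and was not tested.

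**Figure D3:**
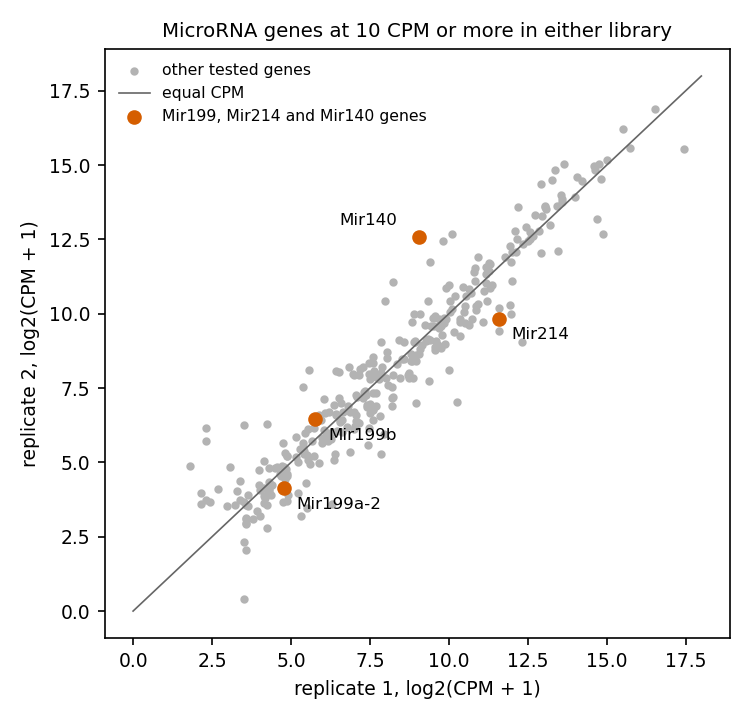
The 329 tested microRNA genes by log2(CPM + 1) in replicate 1 (x axis) and replicate 2 (y axis), with the line of equal CPM. Mir140 lies far above the line (527 and 6072 CPM) and Mir214 below it (3057 and 914 CPM), while Mir199b and Mir199a-2 lie near it.

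Ratios between genes within a library need no scaling for depth. Mir214 had 5.80 reads for each Mir140 read in replicate 1, whereas Mir140 had 6.64 reads for each Mir214 read in replicate 2 (exact 95% interval 6.39 to 6.91). Mir214 and Mir199a-2, which Dnm3os carries on the same strand, stood at 115 to 1 in replicate 1 (87.7 to 153) and 55.4 to 1 in replicate 2 (42.2 to 74.1). Mir214 and Mir199b stood at 56.8 to 1 (47.0 to 69.2) and 10.6 to 1 (9.33 to 11.98). Mature reads of the Mir199 genes can be among the uncounted reads with several alignments. The ratios to Mir199a-2 and Mir199b therefore do not compare the full output of these hairpins, and their intervals cover counting error only.

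Whether a pair of genes shifted unequally between the libraries was tested with Fisher's exact test, two-sided, over all 10 pairs with Benjamini-Hochberg adjustment. All 6 pairs among the 4 tested genes differed. Over all 53956 pairs of the 329 tested genes, 72.2% differed by the same test with adjustment over all pairs, so that unequal shifts were usual between these libraries and the count says nothing particular about these genes. Mir140 and Mir214 lay 5.27 log2 units apart (95% interval 5.16 to 5.38 with the sign as Mir140 minus Mir214). The log2 ratio of Mir199b was higher than that of Mir214 by 2.43 units (2.10 to 2.77, adjusted p = 5.04e-54 by Fisher's exact test). For Mir199a-2, the log2 ratio lay 1.05 units above that of its Dnm3os partner Mir214 (0.47 to 1.63, adjusted p = 4.00e-04 by Fisher's exact test). Both genes were lower in replicate 2, Mir199a-2 by less. The call of Mir199a-2 itself was lost when all genes with a read were tested (adjusted p = 0.0698 by the exact binomial test). To occur in a single annotated hairpin, a Mir199a-2 read needed 28 bases from its 5p start and 24 from its 3p start. In Mir214 these lengths were 13 and 11 bases. The counts of the 2 genes can thus hold unlike reads, and their difference does not compare the full output of the hairpins. Mir199a-2 and Mir199b, which share the 3p strand, differed by -1.37 log2 units (-2.04 to -0.71, adjusted p = 4.97e-05 by Fisher's exact test). This is no comparison of like reads. From the start of the 5p stretch, a single annotated hairpin was reached at 28 bases in Mir199a-2 but at 10 in Mir199b. Reads of the 3p strand alone occur in both hairpins and can be uncounted for both. The 4 pairs with Mir199a-1 rested on its 1 read, and their adjusted p was 0.460 or more by Fisher's exact test.

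**Figure D4:**
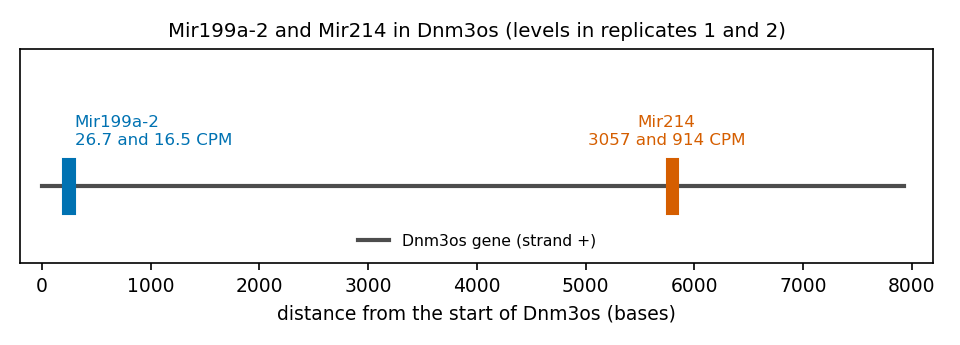
Map of Dnm3os to scale, with the distance from its start in bases on the x axis and the hairpins of Mir199a-2 and Mir214 as boxes. Levels in replicates 1 and 2 are written beside each, 26.7 and 16.5 CPM for Mir199a-2 and 3057 and 914 CPM for Mir214. Mature reads of Mir199a-2 that align to several places are not in its level.

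Other microRNAs of the tissues these genes are known from gave a setting for these values. Over all tested genes, 74.2% passed the test, 37.7% higher and 36.5% lower in replicate 2. Of 5 cartilage-related genes, 1 was higher in replicate 2, none was lower and 4 did not pass the test, with a median log2 ratio of 0.04. Mir455, which is abundant in chondrocytes, stood at 3544 and 3815 CPM (log2 ratio 0.15). Mir193b stood at 925 and 918 CPM, and Mir365-1, a numbered copy, at 25.2 and 28.7 CPM. Mir675, made from the imprinted noncoding RNA H19, stood at 28.2 and 22.4 CPM. Mir193b, Mir365-1 and Mir675 did not pass the test. Mir140 exceeded Mir455 in its shift by 3.42 log2 units (95% interval 3.32 to 3.52) and Mir675 by 3.85 (3.35 to 4.36, adjusted p = 2.37e-37 by Fisher's exact test over 44 pairs). These 44 pairs of a tested gene with a gene of a related list were chosen after the values were seen.

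Of 5 fibroblast and smooth muscle genes, 4 were tested, of which 3 were higher and 1 lower in replicate 2. Among all tested genes, 37.7% were higher and 36.5% lower by the test. The median log2 ratio of the 4 genes was 0.89. Mir145a, which promotes the contractile state of smooth muscle, stood at 897 and 5579 CPM (log2 ratio 2.68). Its partner Mir143 stood at 27532 and 33734 CPM (0.34). Mir21a, a microRNA of activated fibroblasts, stood at 4685 and 12350 CPM (1.45), and Mir22 at 30246 and 6556 CPM (-2.16). Mir140 differed from Mir145a in its shift by 0.89 log2 units (0.78 to 1.00, adjusted p = 6.05e-55 by Fisher's exact test). This was the least of the 11 differences of Mir140 in size. Mir214 differed from Mir22 in its shift by 0.46 log2 units (0.40 to 0.53, adjusted p = 5.83e-40 by Fisher's exact test). Its difference in shift from Mir143 was -2.03 (-2.10 to -1.97).

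The collagen-repressing miR-29 genes held 2 tested members of 4, and both were lower in replicate 2, with a median log2 ratio of -0.97. By the same test, 36.5% of all tested genes were lower. Mir29a stood at 1610 and 792 CPM and Mir29c at 300.5 and 147 CPM. Mir214 differed from Mir29a in its shift by -0.72 log2 units (-0.82 to -0.62, adjusted p = 3.30e-46 by Fisher's exact test). Mir29b-1 and Mir29b-2 were below the floor, and as numbered copies they can lose shared reads.

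**Figure D5:**
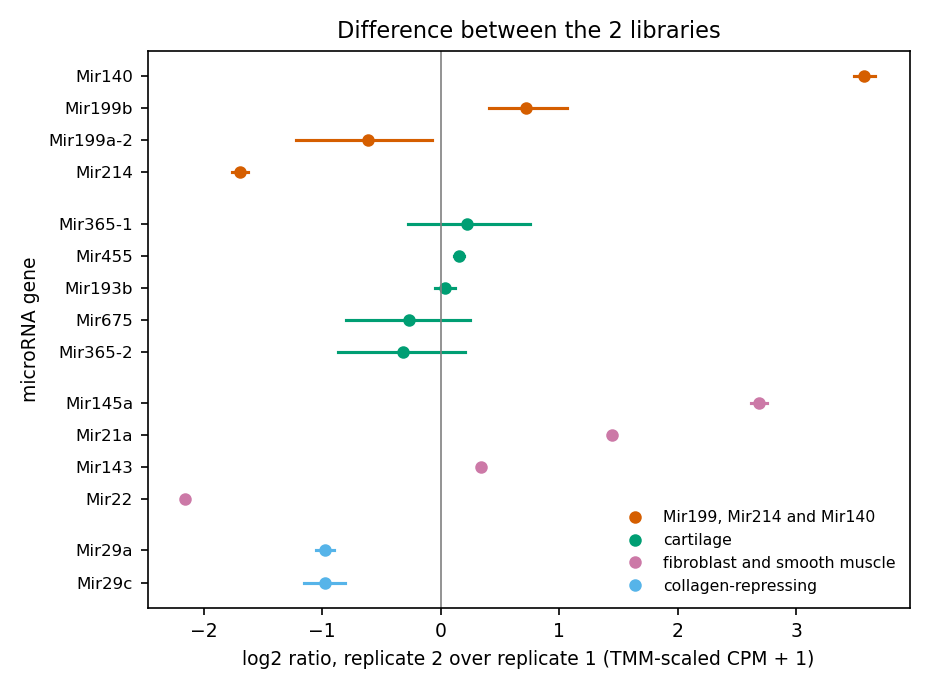
Log2 ratios of replicate 2 over replicate 1 (x axis) for the tested genes of the set and of the related lists, with exact 95% intervals of counting error as bars. Mir140 (3.57) and Mir145a (2.68) lie farthest to the right and Mir22 (-2.16) and Mir214 (-1.69) farthest to the left, while the cartilage-related genes lie between -0.32 and 0.23.

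By distance in mean log2(CPM + 1) and log2 ratio over the 2 libraries, the genes nearest to Mir140 were Mir145a (distance 0.944), Mir487b (1.13, at 1109 and 6585 CPM) and Mir196b (1.22, at 679 and 3410 CPM). Those nearest to Mir214 were Mir15a (0.354, at 3996 and 1025 CPM), Mir483 (0.398, at 3068 and 1173 CPM) and Mir15b (0.409, at 3895 and 1246 CPM). Mir199b was nearest to Mir106a (0.0586), Mir20b (0.105) and Mir204 (0.135), and Mir199a-2 to Mir365-2 (0.343), Mir505 (0.348) and Mir33 (0.372). The smallest distance of Mir140 was thus larger than those listed for the other 3 genes. With 2 libraries these are descriptions of level and ratio, not co-variation.

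MicroRNAs of other cell types also moved between the libraries. Passing the test was usual, with 74.2% of all tested genes passing, 37.7% higher and 36.5% lower in replicate 2. All 7 epithelial genes were higher in replicate 2, the direction of Mir140, with a summed level of 742 and 3274 CPM. The sum was led by Mir203, at 300 and 2141 CPM. Of the 7 epithelial genes, only 5 reached 10 CPM in both libraries. The others, Mir200a and Mir141 (named after their values were seen), passed the floor through replicate 2, which fixed their direction. Leukocyte genes were higher in 5 of 6 cases and lower in 1, with sums of 3895 and 5368 CPM. In the direction of Mir214, all 4 tested striated muscle genes of 8 were lower (sums 11315 and 4507 CPM). Nearly all of both sums was Mir206, at 11177 and 4480 CPM. Mir1a-1 and Mir133a-2, numbered copies named after their values were seen, had 0 reads in both libraries. Only 2 of the 4 tested muscle genes reached 10 CPM in both, and the others passed the floor through replicate 1, which fixed their direction. Mir122 of hepatocytes was lower (26733 and 9284 CPM), as was Mir126a of endothelium (177728 and 47927 CPM), the tested gene of the 2 in its list, and all 3 annotated red blood cell genes of 4 (sums 653 and 320 CPM). Glial genes summed to 369 and 360 CPM, and the 1 tested did not pass. Their part in the differences of Mir140 and Mir214 was not tested. Of the chromaffin and neuroendocrine genes, which mark the adrenal medulla, 1 was higher, 3 were lower and 1 did not pass. Their sums were 28211 and 34978 CPM, led by Mir375, and no list used here marks the adrenal cortex.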

How the data were processed

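Small RNAs of 2 adrenal libraries were analysed. The authors deposited 1 table of raw counts for each library, with reads per annotated microRNA hairpin on mm10 with GENCODE M21, per the file headers and labels. Aligner and counter: not given in the sources used here. The sense-strand column was used. The 4 summary lines (reads with several alignments, unmapped reads, 28.1% and 26.4%, reads outside microRNA genes, 8.55% and 8.86%, and ambiguous reads) stayed out of totals. CPM used reads assigned to microRNA genes. Library sizes were TMM-scaled in edgeR 4.0.16 (R 4.3.3). DESeq2 1.42.0 size factors served as an alternative. Exact tests ran in Python 3.11.15 with SciPy 1.17.1, pandas 2.3.3 and NumPy 2.4.6. The library test was checked on simulated Poisson counts. These held no variation between animals, so the check covers counting error only. With 1 library per animal, edgeR's quasi-likelihood test has no residual degrees of freedom for a difference between them. The libraries differed far beyond sampling noise (chi-square 510405, 437 degrees of freedom), so they were counted as separate. P-values measure only these 2 libraries, and animals and library preparations are not separated.

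The 5 genes, the gene lists and the tests were chosen with earlier results of these data known. Genes named were the 5 genes, the 3 nearest in level and ratio, the neighbours in level, and genes sharing a seed, a host or a 10 kb neighbourhood. From each list, genes were named from among the 4 with the highest mean CPM, not always all of them. Others are marked as named after their values were seen. Alternatives covered scaling, the low-count floor, the pseudocount, the denominator, the strand column and leaving out each library. Shared sequence was searched in GENCODE M21 hairpins of all 2202 genes, in both orientations.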

Additional observations from a re-analysis of the deposited data

How the results depend on the processing

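Of 65 values recomputed under alternatives other than leaving out a library, none reversed. In 59 of them, the value kept its direction and side of the threshold, or moved by no more than the SD between the libraries. Leaving out 1 of 2 libraries always moves a mean by less than that SD and is no sign of stability. The ratio of Mir140 to Mir214, with a mean of 3.41, was 0.172 without replicate 2 and 6.64 without replicate 1. That turns the order of these genes over. Some of the 65 outcomes were also fixed beforehand. The pseudocount does not enter the exact binomial test, and Fisher's exact test uses the counts alone. Counting irrespective of strand held the same reads for these genes, which fixed their within-library ratios. The number 59 is therefore no measure of stability. The call of Mir199a-2 was lost when all genes with at least 1 read were tested (log2 ratio -0.61, adjusted p = 0.0698 by the exact binomial test), because 790 genes were then adjusted for in place of 329; over its other alternatives the adjusted p ran from 0.0182 to 0.0418. Counted irrespective of strand, the mean level was 29.7 CPM for Mir199a-2 and 93.6 CPM for Mir199b, since the total shrinks while their reads are the same. Scaled to all reads in place of assigned reads, these levels were 8.21 and 26.6, and the 5 genes took 0.203% of all reads, by the larger denominator. The log2 ratio of Mir140 ran from 3.52 to 3.60, that of Mir214 from -1.74 to -1.66 and that of Mir199b from 0.68 to 0.75 over the alternatives. The number of genes that differed ran from 195 of 217 tested at the floor of 100 CPM (89.9%) to 247 of 790 with no floor (31.3%). Mir199a-2 and Mir199b were below the floor of 100 CPM and have no value there. No paired analysis was possible because there was 1 group. Leaving out a library leaves 1, so that only levels, shares and within-library ratios could be given without it. Depth limits Mir199a-2 and Mir199a-1 most, with 107 reads and 1 read over both libraries.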
